A study of Mus musculus with 6 samples.

Results

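The 10 genes described here encode scavenger receptors, the surface and endolysosomal proteins with which macrophages and microglia bind modified lipoproteins, microbial products and cell debris. They are Msr1, Marco, Cd36, Scarb1, Scarb2, Cd68, Olr1, Stab1, Mrc1 and Cd163, and each was found in the deposited table of 54532 genes as the entry with that exact gene name. The rule uses the names alone and no measured value, but the members were chosen with earlier results of these data known. The libraries are RNA-seq of N9, an immortalized mouse microglial cell line, with 3 libraries from untreated control cells and 3 from cells kept with lipopolysaccharide (LPS), a glycolipid of the cell wall of Gram-negative bacteria, at 1 µg/ml for 6 h. Both groups were grown in RPMI medium with fetal bovine serum and antibiotics, the labels name no altered gene, and the cells are 1 established line grown without other brain cells. The labels do not say whether the libraries of a group came from separate cultures, so the p-values measure the spread between these samples, which may be technical. The comparison asks how this receptor family differs in LPS-stimulated N9 microglia versus control.

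Scavenger receptors were first known for the uptake of acetylated or oxidized low-density lipoprotein by macrophages, and they are grouped by structure rather than by common descent. Class A receptors (Msr1, Marco) are trimers with collagen-like stalks, class B receptors (Cd36, Scarb1, Scarb2) share a fold with 2 membrane spans, and Cd68, Olr1, Mrc1, Stab1 and Cd163 belong to further classes built from mucin, lectin, fasciclin and cysteine-rich domains. In the brain, several of them are known as receptors through which microglia take up amyloid-β, and LPS, which signals through Tlr4 and Cd14, is itself a ligand of Msr1 and Marco.

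The promoter windows of 3 of these genes are shown because they belong to the member with the largest change (Olr1), the member with the largest fall (Cd36) and the most abundant member (Cd68). Each is the 250 bases before the RefSeq start site on GRCm38.p6, written 5′ to 3′ on the minus strand from which all 3 genes are read, at chr6:129507166-129507415 for Olr1, chr5:17835897-17836146 for Cd36 and chr11:69666171-69666420 for Cd68. Capitals mark the AP-1 pattern TGANTCA in Olr1 and Cd68 and the NF-kB pattern GGGNNNNNCC in Cd36.
Olr1: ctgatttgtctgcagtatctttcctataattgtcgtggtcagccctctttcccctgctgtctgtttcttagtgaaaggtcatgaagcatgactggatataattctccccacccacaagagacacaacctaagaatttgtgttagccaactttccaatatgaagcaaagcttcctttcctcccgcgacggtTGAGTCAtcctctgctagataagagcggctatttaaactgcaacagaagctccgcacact
Cd36: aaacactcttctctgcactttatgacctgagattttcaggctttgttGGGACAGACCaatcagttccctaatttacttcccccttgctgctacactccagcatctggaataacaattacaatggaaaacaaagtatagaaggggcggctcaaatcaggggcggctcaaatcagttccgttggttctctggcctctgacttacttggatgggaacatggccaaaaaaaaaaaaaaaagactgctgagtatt
Cd68: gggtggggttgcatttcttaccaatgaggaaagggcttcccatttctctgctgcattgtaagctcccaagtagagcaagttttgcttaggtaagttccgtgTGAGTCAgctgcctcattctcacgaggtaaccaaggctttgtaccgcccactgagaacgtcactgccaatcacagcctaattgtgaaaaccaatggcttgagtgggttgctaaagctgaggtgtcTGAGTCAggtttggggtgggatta
None of the 3 windows overlaps an annotated exon in GENCODE M21. The Cd36 window lies within the span of the gene, whose 6 annotated transcripts have 6 different start positions, so it is the promoter of the RefSeq start alone.

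RefSeq promoter windows matched 8 of the 10 members (all but Msr1 and Scarb1) among 32851 windows of the same length, and 7 patterns were searched on both strands. Of the 8, the windows of Mrc1, Scarb2 and Cd163 overlap an annotated exon, which for Cd163 belongs to another gene, Gm25311. The AP-1 pattern TGANTCA was found in the windows of Olr1, from 60 to 54 bases before the start, and of Cd68, from 149 to 143 and from 24 to 18 bases before it. That is 2 of 8 members, against 6.75% of all windows. The NF-kB pattern GGGNNNNNCC was found in 5 of 8 members (Cd163, Cd36, Marco, Mrc1 and Scarb2) and in 45.8% of all windows. In Cd36 it stood from 203 to 194 bases before the start, and in Marco 2 of its 3 matches overlapped each other. The PU.1 pattern GAGGAAG was found in Marco and Mrc1 and in 10.6% of all windows. The ISRE pattern (GAAA, any 2 bases, GAAA), the E-box CACGTG, the CRE TGACGTCA and the GAS pattern TTCNNNGAA, held by 2.98%, 6.02%, 1.55% and 7.02% of all windows, were in none of the 8. Matches to different patterns did not overlap in the members. The median GC content was 48.4% in the 8 windows and 52.4% in all windows. These matches describe letters in a window and were not tested against the changes below.

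The total count per library was between 16589508 and 17956772 in control and between 16363767 and 17015639 with LPS, so that 3 counts amount to between 0.161 and 0.19 CPM, the counts of a gene scaled to a common library size with TMM factors, which edgeR derives from the bulk of the genes. Libraries of a group differed by more than sampling noise (chi-square per gene between 3.47 and 7.35), so none was taken for a second deposit of another. Libraries prepared separately from 1 culture could also differ by more than that noise, and only the labels make each of them a sample. Of the microglia and macrophage marker list of 15 genes, 10 had enough counts to be tested, Csf1r stood at 431.6 CPM in control, and 2 were at or under 3 counts in every library (Siglech, at 0 throughout, and Sall1). The list was uneven in control: Tyrobp was at 213.6 CPM and Tmem119 at 9.65 CPM, but C1qa was at 0.546, Aif1 at 0.379 and P2ry12 at 0.264 CPM. The markers of this list are named after their values were seen. The summed CPM of other lists lay, in control and with LPS, at 96.0 to 98.7 and 96.0 to 104.8 for 7 astrocyte markers, 45.6 to 54.3 and 42.6 to 43.5 for 7 oligodendrocyte markers, 28.1 to 29.5 and 29.7 to 33.0 for 7 neuron markers, and 106.0 to 117.2 and 98.4 to 110.8 for 7 endothelial markers. Most of each sum came from few genes, named after their values were seen. In control these were Gja1 (68.0 CPM) and Aldh1l1 (28.3), Mbp (36.1) and Cnp (13.6), Map2 (22.5), and Flt1 (67.7) and Vwf (43.5). Likewise named afterwards, Gfap was at 0.111, Rbfox3 at 0.0374 and Olig2 and Cldn5 at 0 CPM in control. Of these lists, Tubb3 of the neuron markers (log2FC 1.67, SE 0.15, adjusted p = 7.3e-07) and Kdr of the endothelial markers (log2FC 2.24, SE 0.52, adjusted p = 0.00355) changed by more than 1 on the log2 scale. Kdr, from 0.22 to 1.09 CPM, rests on at most 21 counts in a library. The 12 hepatocyte markers summed to 0.467, 16.5 and 25.3 CPM in control replicates 1, 2 and 3 and to between 0.317 and 0.852 CPM with LPS.

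Of the 10 members, 5 changed with LPS, in both directions. Olr1, Stab1 and Msr1 rose and Cd36 and Scarb1 fell, while Cd68 and Scarb2 did not pass the test and Marco, Mrc1 and Cd163 had too few counts to be tested. Only Olr1 changed by more than 3-fold, and the other 4 changes lay between a rise of 35.3% and a fall by 19.7%. A call is an adjusted p under 0.05 by edgeR's quasi-likelihood test over the 12296 genes with enough counts, of which 18.7% were called higher and 15.7% lower, beside 3 and 2 of the 7 members tested. The call of Msr1 was lost with library totals alone, and that of Scarb1 without LPS replicate 2 or LPS replicate 3. With the further threshold of the study, an absolute log2 fold change (log2FC) over 1.5, 1 member was called higher (Olr1), against 2.4% of all genes tested, and 0 were called lower, also at an unadjusted p under 0.05 and by DESeq2, against 0.252%. The CPM of control and LPS libraries did not overlap for the 5 members called, and the same held for 45.3% of all genes tested. The median log2FC was 0.11 over the 7 members and 0.0036 over all genes tested, whose 5th and 95th percentiles were -0.57 and 0.86. In bulk RNA, fewer cells that express a gene and less RNA per cell cannot be told apart.

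**Figure D1:**
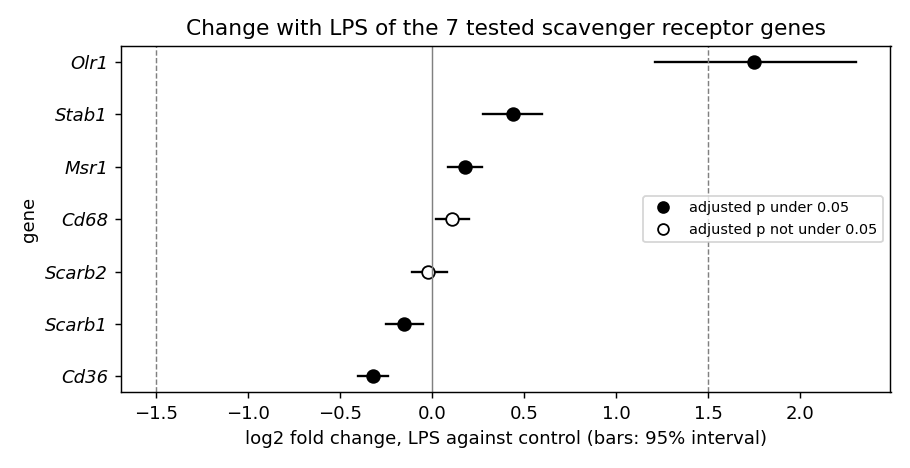
The log2 fold change of LPS against control is plotted for each of the 7 tested scavenger receptor genes, with bars for the 95% confidence interval of the edgeR fit over 3 libraries a group. Olr1 stands alone at 1.75, the other called genes lie between -0.32 and 0.44, and the interval of Scarb2 spans 0.

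Olr1, the lectin-like receptor for oxidized low-density lipoprotein, showed the largest change. It lies at chr6:129485244-129507165 on the minus strand (ENSMUSG00000030162). Its counts were 21, 21 and 15 in the control replicates and 58, 59 and 59 in the LPS replicates, which correspond to 1.23, 1.19 and 0.807 CPM and to 3.68, 3.6 and 3.59 CPM. The LPS libraries were nearly equal and all lay above the control libraries. The mean rose from 1.07 ± 0.232 to 3.62 ± 0.0468 CPM (SD, n = 3), a 3.37-fold rise with a log2FC of 1.75 (SE 0.25, 95% confidence interval 1.21 to 2.3, adjusted p = 7.5e-05). This change was larger in size than that of 97.9% of the genes tested, although the mean CPM per kb of Olr1 over all libraries stood above only 10.5% of them. The counts of Olr1 are small, and the interval reaches below the log2FC threshold of 1.5. Of the tested genes within 200 kb, the neighbouring lectin receptor genes Clec7a (log2FC -0.2, adjusted p = 0.57) and Clec12a (log2FC -0.2, adjusted p = 0.27) were not called and Gabarapl1 was higher by 0.17 (adjusted p = 0.02).

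Msr1, the class A receptor that gave the family its name, rose by a small amount at a high level. It lies at chr8:39581685-39642673 on the minus strand (ENSMUSG00000025044). The control replicates held 350.1, 334.6 and 330.8 CPM and the LPS replicates 387.5, 374.0 and 389.5 CPM. Each LPS library was above each control library. The rise was 13.3% (95% confidence interval 6.73 to 20.4%), from 338.5 ± 10.3 to 383.7 ± 8.43 CPM, with a log2FC of 0.18 (SE 0.04, adjusted p = 0.00285). The call depends on the scaling: with library totals alone in place of TMM factors the log2FC was 0.08 (adjusted p = 0.12). That scaling lowered the median log2FC of all genes by 0.0982 and moved the share of calls that were higher from 54.3% to 31.3%.

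Marco, the other class A receptor, known from macrophages of lung and spleen, was barely counted. The control replicates had 3, 8 and 10 counts and the LPS replicates 18, 6 and 13, or 21 and 37 counts in all. The groups overlapped at means of 0.389 ± 0.19 and 0.766 ± 0.388 CPM, and the gene stayed below the filter for testing. In the alternatives that could fit it, the log2FC lay between 0.60 and 1.28 with adjusted p between 0.103 and 0.46.

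Of the class B receptors, Cd36 and Scarb1 fell and Scarb2 did not pass the test. Cd36, which binds oxidized lipoproteins and long-chain fatty acids and acts with Tlr2 and Tlr6, lies at chr5:17781690-17888801 on the minus strand (ENSMUSG00000002944). It was at 576.3, 583.2 and 579.5 CPM in the control replicates and at 481.5, 464.6 and 449.6 CPM in the LPS replicates. The control libraries were nearly equal and stood well above all LPS libraries. Cd36 fell by 19.7% (95% confidence interval -24.1 to -15.1%), from 579.7 ± 3.44 to 465.2 ± 15.9 CPM, with a log2FC of -0.32 (SE 0.04, adjusted p = 9.7e-06). By its mean CPM per kb over all libraries Cd36 stood above 97.3% of the tested genes. The 1 tested gene within 200 kb, Sema3c, was higher (log2FC 1.01, SE 0.06, adjusted p = 2e-09).

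Scarb1, the receptor for high-density lipoprotein, lies at chr5:125277087-125341094 on the minus strand (ENSMUSG00000037936). It was at 200.2, 197.7 and 193.9 CPM in the control replicates and at 188.1, 171.5 and 173.7 CPM in the LPS replicates. The groups did not overlap, with LPS replicate 1 closest to control. Scarb1 fell by 9.9% (95% confidence interval -16.0 to -3.4%), from 197.3 ± 3.2 to 177.8 ± 8.98 CPM, with a log2FC of -0.15 (SE 0.05, adjusted p = 0.0223). The call was lost without LPS replicate 2 (log2FC -0.13, adjusted p = 0.102) and without LPS replicate 3 (log2FC -0.13, adjusted p = 0.0862), and the log2FC was -0.25 with library totals alone. Scarb1 is also a liver gene. The hepatocyte markers summed to 0.467, 16.5 and 25.3 CPM in the control replicates, where Scarb1 was at 200.2, 197.7 and 193.9 CPM, and to at most 0.852 CPM with LPS, and the part of such RNA in the Scarb1 result was not tested.

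Scarb2, an abundant membrane protein of lysosomes, lies at chr5:92441314-92506833 on the minus strand (ENSMUSG00000029426). It was at 108.5, 104.9 and 102.8 CPM in control and at 102.6, 105.9 and 103.8 CPM with LPS. The groups overlapped, and the estimated change was -1.24% (95% confidence interval -7.58 to 5.54%, adjusted p = 0.795). With library totals alone its log2FC was -0.12 (adjusted p = 0.0503), against -0.02. At 92.4 kb from Scarb2 lies Cxcl10, a chemokine gene, with a log2FC of 7.04 (SE 0.11, adjusted p = 1.1e-15).

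Cd68, a mucin-like protein of late endosomes and lysosomes that is widely used as a macrophage marker, was the most abundant member and did not pass the test. It lies at chr11:69664213-69666153 on the minus strand (ENSMUSG00000018774). The control replicates held 599.4, 642.6 and 628.9 CPM and the LPS replicates 710.2, 671.6 and 636.6 CPM. LPS replicate 3 lay below control replicate 2, so the groups overlapped. The means were 623.6 ± 22.1 and 672.8 ± 36.8 CPM, a difference of 7.87% (95% confidence interval 1.1 to 15.1%) with an adjusted p of 0.068. Without LPS replicate 3 the adjusted p was 0.0241, and with robust dispersion it was 0.0327. With library totals alone the log2FC of Cd68 was 0.01 (adjusted p = 0.867), against 0.11 with TMM factors. Eif4a1 lies 0.783 kb from Cd68, and of the 15 tested genes within 200 kb 2 were higher and 0 were lower at an adjusted p under 0.05.

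Stab1, a large endocytic receptor that clears modified lipoproteins and extracellular proteins such as SPARC, was higher with LPS. It lies at chr14:31139013-31168641 on the minus strand (ENSMUSG00000042286). It was at 29.5, 33.1 and 30.2 CPM in the control replicates and at 38.7, 43.8 and 43.0 CPM in the LPS replicates. All LPS libraries stood above all control libraries. The rise was 35.3% (95% confidence interval 21.2 to 51.1%), from 30.9 ± 1.91 to 41.9 ± 2.73 CPM, with a log2FC of 0.44 (SE 0.07, adjusted p = 0.00031). Stab1 shares 112 bases with Nt5dc2 on the opposite strand, which was lower (log2FC -0.29, SE 0.08, adjusted p = 0.011), and whether the counting used strand is not given in the sources used here. Stab1 is also a marker of border-associated macrophages, and the 10 markers of that list summed to between 35.6 and 39.7 CPM in control and between 46.0 and 51.9 CPM with LPS, most of it Stab1 itself. Of the 3 tested genes of that list, Stab1 and Ms4a7 (log2FC 1.59, SE 0.37, adjusted p = 0.00388, from 0.465 to 1.42 CPM) were higher and Pf4 was not called. Named after their values were seen, Cd209f was at 0 and Folr2 at or under 3 counts in every library, as was Cd163. The part of such cells in the Stab1 result was not tested.

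Mrc1, the mannose receptor, and Cd163, the receptor for haemoglobin bound to haptoglobin, were near or below what these libraries can count. Mrc1 had 6, 3 and 1 counts in control and 1, 0 and 12 with LPS, and its mean with LPS, 0.265 CPM, was 0.0317 CPM without LPS replicate 3. The groups overlapped, and in the alternatives that could fit the gene the log2FC was 0.47 with adjusted p between 0.79 and 0.868. Cd163 had 0 counts in every control library and 0, 2 and 1 with LPS. All 6 values are within the 3 counts that a count of 0 allows, so no fold is given, and a difference was not detectable at this depth.

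**Figure D2:**
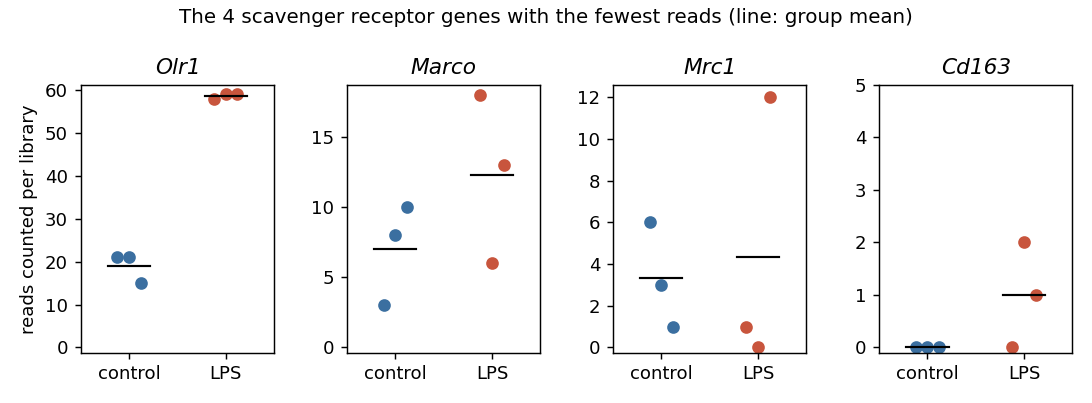
The reads counted per library are plotted for the 4 members with the fewest, with 1 point per library, blue for control and red for LPS, a line at the group mean and a separate axis from 0 for each gene. The 3 Olr1 libraries with LPS sit at 58 and 59 above 15 to 21 in control, while the groups overlap for Marco and Mrc1 and Cd163 does not exceed 2 counts.

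By an exact two-sided permutation test over the 6 libraries on CPM, the 5 called members each gave p = 0.1, the smallest value that 3 against 3 can give. Cd68 gave 0.2, Scarb2 0.6, Marco 0.3, Mrc1 0.9 and Cd163 0.4 by the same exact permutation test, which cannot pass 0.05 in this design.

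To set the genes side by side, CPM was divided by the deposited gene length in kb. The order in control was Cd68 (496.1 CPM per kb), Cd36 (161.5), Msr1 (53.4), Scarb1 (23.2), Scarb2 (16.8), Stab1 (3.01), Olr1 (0.301), Marco (0.202), Mrc1 (0.03) and Cd163 (0). The libraries of neighbours in this order did not overlap, except for Olr1 and Marco. The order with LPS was the same. There Olr1 (1.01 CPM per kb) stood apart from Marco (0.398), and Mrc1 (0.0415) and Cd163 (0.0112) overlapped. The closest pair among the well-counted members was Scarb1 and Scarb2, whose ratio was 1.38 in control and 1.26 with LPS, and the gap of Cd68 to Cd36 was 3.07-fold in control and 4.13-fold with LPS. These gaps depend on the deposited lengths, such as 1257 bases for Cd68 and 3590 for Cd36. Before division by length, the control means were 623.6 CPM for Cd68 and 579.7 for Cd36, and 197.3 for Scarb1 and 105.4 for Scarb2.

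Summed per length, the 10 members came to 754.5 ± 16.8 CPM per kb in control and 768.3 ± 34.3 with LPS, and the groups overlapped (736.7 to 770.2 and 735.7 to 804.0). The make-up of that sum differed between groups. Cd68 took 64.7 to 66.4% of it in control and 68.8 to 70.3% with LPS. Cd36 took 21.1 to 21.8% and 16.7 to 17.0%, and Msr1 6.85 to 7.49% and 7.60 to 8.35%. Olr1 took 0.0399% of the sum in control and 0.132% with LPS, so that the member with the largest fold change remained a small part of the family's transcripts. These shares are tied to one another, since a lower share of one gene raises the others, and they were not tested. They also depend on the deposited gene lengths.

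**Figure D3:**
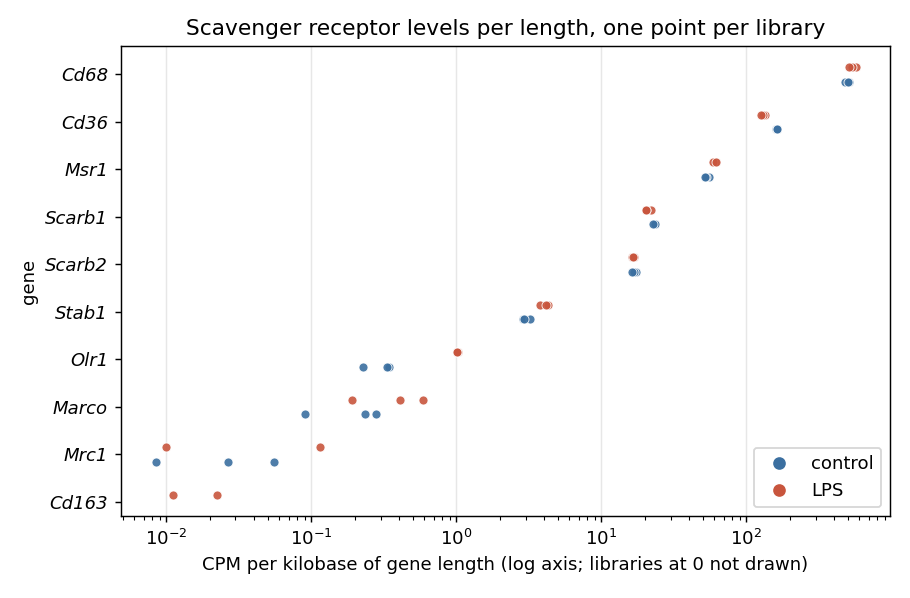
The level per length of each member is plotted with 1 point per library on a log axis of CPM per kb, blue for control and red for LPS, with libraries at 0 left out. The members range from Cd68, at 496.1 in control, down to Cd163, drawn only for 2 LPS libraries at 0.0223 and 0.0112, and the groups stand apart most at Olr1.

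The other genes of these pathways were read from 6 lists, counted at an adjusted p under 0.05 against the same 18.7% higher and 15.7% lower. Of 19 other scavenger receptors, 11 were tested, 4 were higher and 2 lower, with a median log2FC of -0.01. Without control replicate 3, 1 was lower. The most abundant per length was Cd14, the co-receptor for LPS, which rose from 1711.7 ± 17.3 to 2621.1 ± 78.2 CPM (log2FC 0.61, SE 0.03, adjusted p = 2.1e-10). Cxcl16, a membrane-bound chemokine that also binds oxidized lipoprotein, rose from 2.07 to 4.51 CPM (log2FC 1.12, SE 0.26, adjusted p = 0.00387). Megf10, an engulfment receptor for apoptotic cells, rose from 0.504 to 1.27 CPM (log2FC 1.32, SE 0.41, adjusted p = 0.0217). Lrp2, an endocytic receptor of the low-density lipoprotein receptor family, fell from 1.54 to 0.532 CPM (log2FC -1.52, SE 0.40, adjusted p = 0.00823). Megf10 and Lrp2 rest on at most 36 counts in a library. Named after their values were seen, Cd44, the hyaluronan receptor, rose (log2FC 0.80, SE 0.03) and Colec12, a class A relative of Msr1, fell (log2FC -0.33, SE 0.04).

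Among 17 genes of lipid handling, 16 were tested, 10 were higher and 3 lower, with a median log2FC of 0.24. Acsl1, which activates long-chain fatty acids, rose from 87.7 ± 2.25 to 177.7 ± 3.28 CPM (log2FC 1.02, SE 0.04, adjusted p = 1.4e-10). Fabp5, a fatty acid binding protein and the most abundant of the list per length, was at 750.9 and 700.7 CPM (adjusted p = 0.0594). With library totals alone 8 genes of this list were higher and 5 lower, beside 1520 higher and 3342 lower over all genes tested.

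Of 14 transcription factors linked to these receptors or to macrophages, 13 were tested, 5 were higher and 3 lower. Maf, a factor of macrophage differentiation, had 2, 5 and 0 counts in control and 30, 15 and 24 with LPS (log2FC 3.37, SE 0.62, adjusted p = 5.8e-04). Spi1, which encodes PU.1, rose from 282.4 ± 10.2 to 423.6 ± 13.5 CPM (log2FC 0.58, SE 0.04, adjusted p = 5.4e-08). Pparg, the nuclear receptor known to activate Cd36 and named after its values were seen, was too low to be tested at 0.208 CPM in control and 0.145 CPM with LPS.

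All 18 receptor partners and signaling genes were tested, and 9 were higher and 5 lower. Tlr2, a partner of Cd36, rose from 123.5 ± 4.39 to 423.9 ± 4.05 CPM (log2FC 1.78, SE 0.04, adjusted p = 1.6e-13). The tyrosine kinases Src and Syk rose as well, Src from 19.3 to 56.9 CPM (log2FC 1.56, SE 0.07) and Syk from 157.0 to 336.2 CPM (log2FC 1.10, SE 0.04). Mertk, a receptor for the uptake of apoptotic cells, fell from 29.8 ± 1.37 to 12.1 ± 0.598 CPM (log2FC -1.30, SE 0.09, adjusted p = 2.1e-08). The most abundant gene per length was again Cd14, which both lists hold. Without control replicate 1 or without LPS replicate 3, 3 genes of the list were lower.

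Of 11 sheddases and receptor adaptors, 7 were tested, 5 were higher and 1 lower. Rhbdf2, which helps the sheddase Adam17 to mature, rose from 42.3 ± 1.65 to 101.2 ± 6.24 CPM (log2FC 1.26, SE 0.06, adjusted p = 2.6e-10). Dab2, an endocytic adaptor and the most abundant of the list per length over all libraries, rose from 356.9 ± 4.16 to 383.8 ± 4.04 CPM (log2FC 0.10, SE 0.04, adjusted p = 0.0433). Adam10, a sheddase and the most abundant of the list per length in control, fell from 270.2 ± 2.72 to 210.1 ± 3.99 CPM (log2FC -0.36, SE 0.04, adjusted p = 5.9e-06). The higher count of this list was 3 when control replicate 1 or 2 or LPS replicate 1, 2 or 3 was left out. It was 1 with library totals alone, where 2 genes of the list were lower, beside 1520 higher and 3342 lower over all genes tested.

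The last list held 13 genes of haem turnover, haptoglobin and lysosomes, of which 12 were tested, 5 were higher and 2 lower. Hmox1, the haem oxygenase that follows uptake through Cd163, rose from 376.5 ± 1.21 to 923.8 ± 9.41 CPM (log2FC 1.29, SE 0.03, adjusted p = 3.1e-13). Hp, which encodes haptoglobin, rose from 50.8 ± 0.979 to 126.6 ± 2.23 CPM (log2FC 1.32, SE 0.05, adjusted p = 8.7e-12), in libraries where Cd163 was at or under 3 counts. Fth1, a ferritin subunit and the most abundant of the list per length, rose from 4198.7 ± 54.3 to 5722.4 ± 188.5 CPM (log2FC 0.45, SE 0.02). With library totals alone this list had 3 genes higher and 4 lower, beside 1520 higher and 3342 lower over all genes tested.

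**Figure D4:**
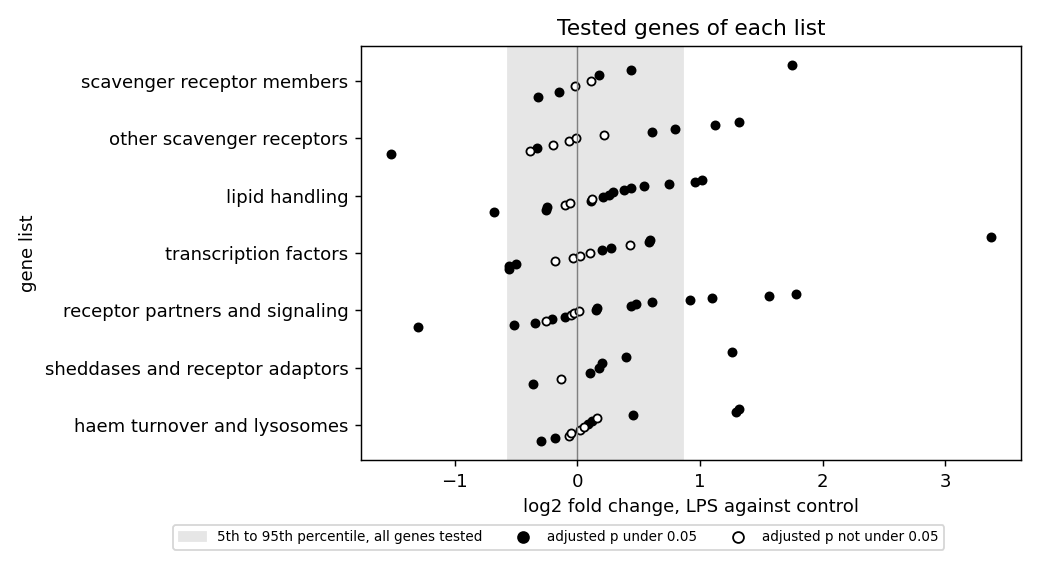
Each point is a tested gene of 1 list, placed at its log2 fold change of LPS against control, and filled where the adjusted p is under 0.05. The grey band spans the 5th to 95th percentile of all genes tested (-0.57 to 0.86), and of the scavenger receptor members only Olr1 lies outside it, at 1.75.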

How the data were processed

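RNA from 6 samples of N9 microglia, 3 control and 3 with LPS, was sequenced by Novogene for the authors. The authors deposited a table of unnormalized whole-number counts of reads on 54532 genes, and the submitters' processing notes name featureCounts 1.5.0-p3 and mm10. The aligner, the use of strand and the annotation release are not given in the sources used here. A second deposited table holds the authors' own comparison (log2 fold changes and p-values) and 18 columns of values per sample, none of which was used. Gene positions and lengths are those of the count table, and for all 10 members the positions equal those of GENCODE M21.

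Here edgeR 4.0.16 under R 4.3.3 tested LPS against control with TMM factors, filterByExpr by group, a prior count of 0.125, the quasi-likelihood test and no replicate term, with Benjamini-Hochberg adjustment over 12296 genes. CPM used the TMM-scaled library sizes, with factors of 1.034 to 1.036 in control and 0.9646 to 0.9699 with LPS. The standard error is the log2 fold change divided by the square root of F, and the 95% intervals are not adjusted for the number of genes. Named genes are all members and, of the other lists, those called at an adjusted p under 0.05 whose log2 fold change exceeded 1 in size, or the most abundant per length; genes named outside this rule are marked, apart from tested neighbours and overlapping genes of the members. The values of 1 listed gene are not reported here. The members and lists were chosen with earlier results of these data known. No molecular identifiers are described for the reads, which are then not independent molecules, so limits from counts cover counting error only. The fits were tested on simulated data. Alternatives were DESeq2 1.42.0, RLE factors, library totals alone, other filters, robust dispersion, a prior count of 2, a replicate block, protein-coding genes alone and each library left out. Python 3.11.15 and matplotlib 3.10.9 were used for tables and figures.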

Additional observations from a re-analysis of the deposited data

How the results depend on the processing

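Of 16 alternatives, 11 called exactly the same 5 members. With library totals alone Msr1 was not called (log2FC 0.08, adjusted p = 0.12). Cd68 was called with robust dispersion (log2FC 0.11, adjusted p = 0.0327) and with robust dispersion and no filter (0.10, adjusted p = 0.0402), the latter an alternative chosen after seeing the data. The cause of these differences was not tested. When single libraries were left out, the log2FC lay between 0.07 and 0.15 for Cd68 (adjusted p 0.0241 to 0.246, called in 1 of 6) and between -0.19 and -0.13 for Scarb1 (adjusted p 0.00748 to 0.102, called in 4 of 6). The number of members lower lay between 1 and 2. Olr1 (1.57 to 1.84), Msr1 (0.16 to 0.20), Stab1 (0.39 to 0.49) and Cd36 (-0.34 to -0.29) were called in 6 of 6, and Scarb2 (-0.04 to -0.01) in 0. The labels do not say whether control and LPS libraries of the same replicate number belong together. Deviations of libraries of the same number correlated at 0.136, 0.0588 and -0.00415, and control replicate 2 correlated best with LPS replicate 3 (0.0912). The highest value of all was that of control replicate 1 with LPS replicate 1 (0.136), so these values do not settle whether the numbers mark pairs. With the replicate number as a block, 3 members were higher, 2 lower and 1 past both thresholds, as without it. Over all results and settings, the other lists and levels included, 330 values kept their direction and side of the threshold or moved little, and 23 moved further. Gained and lost calls were read only from the log2FC of the tested members, where 3 values gained and 3 lost a call, and none reversed. The lists were compared by their counts, not gene by gene. At 3 counts a library, about 0.161 to 0.19 CPM, the depth limits Mrc1 and Cd163.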
